A study of Homo sapiens with 10 samples.

Results

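BCL2, BCL2L1, BCL2L2, MCL1 and BCL2A1 code for the anti-apoptotic members of the BCL-2 family, and their RNA levels were compared between VEN-sensitive and VEN-insensitive leukemia lines. These 5 genes were chosen by symbol and matched through GENCODE to the Ensembl identifiers of the count data, which list 63677 genes. The cells were RS4;11, a long-established line of B-cell precursor leukemia (BCP-ALL) with a KMT2A rearrangement, and the drug was the BCL-2 inhibitor venetoclax (VEN). The 5 VENins lines were raised from RS4;11 in parallel under VEN concentrations that were increased over 8 months to 100 nM, and they stayed under VEN in culture. The 5 VENsens lines went through the same 8 months with the solvent DMSO. VEN was washed out before analysis. One RNA-Seq library was made per line, so that the comparison rested on 10 libraries, with 20631907 to 28323643 counts on genes in VENsens and 21145316 to 25394653 in VENins libraries. All lines descend from 1 cell line, and p-values measure the spread between these lines.

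Anti-apoptotic BCL-2 proteins hold the pro-apoptotic BH3-only proteins, such as BIM, and the effectors BAX and BAK in a groove on their surface and so keep the outer mitochondrial membrane closed. VEN occupies this groove in BCL-2, whereas MCL-1, BCL-XL (the product of BCL2L1), BCL-W (BCL2L2) and BFL-1 (BCL2A1) bind it poorly and can still hold BH3-only proteins. Lymphoid cells rely on different members at different stages of their development, and MCL-1 is a short-lived protein. The comparison addressed whether RNA of the drug target or of its relatives differed in lines that had adapted to VEN.

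The genes were related but did not share whole reads with each other, which matters for counting them apart. The region named BCL-2 homology 1 (BH1) lines the groove and holds a conserved run of asparagine, tryptophan, glycine and arginine. The coding strand around these codons is given below from the transcripts of GENCODE 29 (GRCh38), 60 bases per gene, with the codons of that run in capitals.
BCL2: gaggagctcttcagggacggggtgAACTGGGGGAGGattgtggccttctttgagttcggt
MCL1: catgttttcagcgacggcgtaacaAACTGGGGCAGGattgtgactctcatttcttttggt
BCL2L1: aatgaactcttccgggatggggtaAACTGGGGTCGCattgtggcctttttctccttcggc
BCL2L2: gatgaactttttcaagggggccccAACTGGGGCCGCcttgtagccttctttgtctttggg
BCL2A1: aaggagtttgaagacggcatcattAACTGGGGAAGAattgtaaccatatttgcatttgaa

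Each stretch lay in 1 coding exon: at chr18:63318205-63318264 (minus strand) for BCL2, chr1:150578367-150578426 (minus) for MCL1, chr20:31721778-31721837 (minus) for BCL2L1, chr14:23308017-23308076 (plus) for BCL2L2 and chr15:79970832-79970891 (minus) for BCL2A1. BCL2 was identical to BCL2L1 at 45 of 60 bases, to BCL2L2 at 38, to MCL1 at 35 and to BCL2A1 at 34. The capitals differed between any pair of genes at 1 to 3 of 12 bases, counted without shifts. Over whole transcripts, the longest run of bases that any pair of members had in common was 14, between BCL2 and BCL2L1 and between BCL2 and BCL2A1, which is far below the read length of 75. A read from one member could therefore not be an exact match to another.

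Sharing with other annotated genes was larger. None of the windows of 75 bases in the transcripts of BCL2, MCL1 and BCL2A1 occurred in a transcript of another gene, on either strand. Of those of BCL2L2, 18.8% occurred in the read-through gene BCL2L2-PABPN1 or in PPP1R3E on the opposite strand, and BCL2L2-PABPN1 itself held 1 to 4 and PPP1R3E 313 to 523 counts per library, beside 476 to 699 for BCL2L2. Of those of BCL2L1, 34.8% occurred in the antisense gene ABALON, for which no identifier of the count data was matched. The library kit does not mark the strand, so that reads of BCL2L1 and ABALON cannot be told apart, and the values of BCL2L1 and BCL2L2 are uncertain to this extent. Counts per gene also merge the splice forms of each member, including the short forms of BCL2L1 and MCL1.

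MCL1 and BCL2 had the highest RNA levels of the family, followed by BCL2L1 and BCL2L2, and BCL2A1 was barely detected. Per kilobase of annotated exon, MCL1 reached 52.6 ± 2.61 CPM (VENsens) and 53.0 ± 3.55 CPM (VENins; mean ± SD of 5 lines), where CPM are counts relative to the library's total after TMM normalization. BCL2 had 35.8 ± 2.52 CPM per kilobase in VENsens and 32.5 ± 1.54 in VENins lines. Both lay in the upper part of the transcriptome, with 94.4% and 90.7% of 11928 tested protein-coding genes below MCL1 and BCL2 in VENsens lines. BCL2L1 had 20.9 ± 0.986 CPM per kilobase in VENsens and 20.8 ± 1.12 in VENins lines, and BCL2L2 had 5.85 ± 0.208 and 5.53 ± 0.502. Thus BCL2L1 stood above 81.9% and BCL2L2 above 48.0% of these genes in VENsens lines. The order MCL1, BCL2, BCL2L1, BCL2L2 and BCL2A1 was found in 10 of 10 libraries. The step from MCL1 to BCL2 depended on the length used, since the annotated exons of BCL2 add up to 11.765 kb and its longest transcript has 7461 bases. With the longest transcript of each gene, MCL1 had 58.5 ± 2.90 and BCL2 56.5 ± 3.98 CPM per kilobase in VENsens lines, which did not differ beyond their spread, and BCL2 came first in 1 of 10 libraries, VENsens 5. In VENins lines, MCL1 had 58.9 ± 3.94 and BCL2 51.2 ± 2.43 CPM per kilobase with this length, and MCL1 was higher in 5 of 5 libraries. The other steps exceeded the spread between lines with either length.

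**Figure D1:**
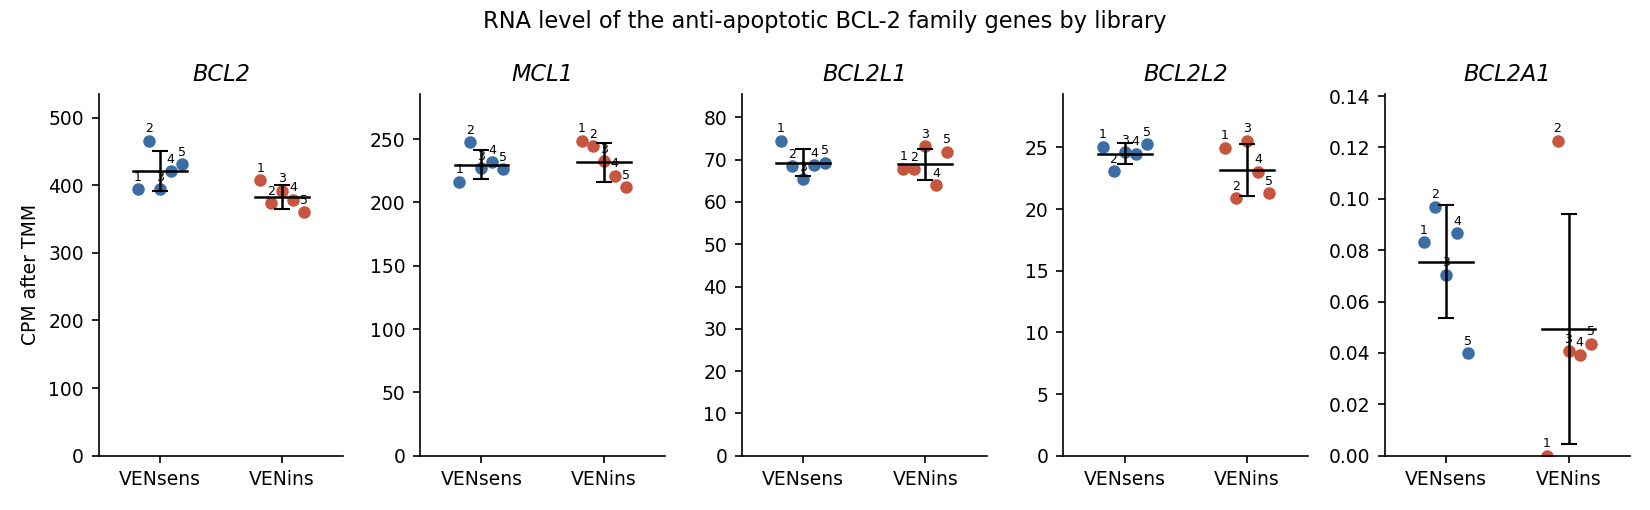
RNA level of each anti-apoptotic gene in CPM after TMM (vertical axes start at 0 and differ between panels) for 5 VENsens lines (blue) and 5 VENins lines (red). Points are libraries with their line number, and bars are mean ± SD. The groups overlap in every panel, and BCL2A1 stays at or below 0.123 CPM.

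Of the 4 members that passed the filter on low counts, edgeR called 0 between VENins and VENsens lines at an adjusted p under 0.05, 1 (BCL2) at an unadjusted p under 0.05, and DESeq2 called 0 with or without the line block. The groups overlapped for each of these members. Over all 16756 tested genes, 33 (0.197%) had an adjusted p under 0.05, and 4.66% had groups without overlap, so that 0 of 4 is near the share in the transcriptome. An unadjusted p under 0.05 was found for 16.2% of all tested genes, and DESeq2 called 1.3% of them with the line block and 4.41% without it. BCL2A1 was not tested. Of the 4 tested members, 3 had a log2 fold change below 0, beside 48.9% of all tested genes, with a median of -0.05 beside 0.0035 over all tested genes. These are bulk values, in which fewer cells and less RNA per cell cannot be told apart.

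BCL2, the target of VEN (ENSG00000171791), had 395, 466, 394, 421 and 431 CPM in VENsens lines 1 to 5 and 407, 373, 392, 379 and 360 CPM in VENins lines 1 to 5. VENsens 2 was the highest and VENins 5 the lowest library, and VENins 1 lay among the VENsens lines. Behind these levels stood 8263 to 11194 counts per library. Averaged over 5 lines (± SD), VENsens lay at 421 ± 29.7 and VENins at 382 ± 18.1 CPM, and the level was lower in VENins in 4 of 5 line pairs. The log2 fold change was -0.14 (SE 0.06, 95% interval -0.27 to -0.01, adjusted p = 0.267), a ratio of 0.908 with an interval of 0.832 to 0.991. The interval of this gene alone thus stayed below 0, while the test adjusted over all genes was not passed. After the dependence of each library on transcript length and GC content had been removed, BCL2 was at -0.07 (95% interval -0.16 to 0.03, adjusted p = 0.433). Over 23 alternatives the adjusted p ranged from 0.118 to 0.724.

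MCL1 (ENSG00000143384), whose product can hold BIM when BCL-2 is blocked, had 216, 248, 227, 232 and 226 CPM in VENsens lines 1 to 5. In VENins lines 1 to 5 it had 249, 245, 232, 221 and 212 CPM. The highest and the lowest of the 10 libraries, VENins 1 and VENins 5, were both VENins lines, and the VENsens values fell between them. The means were 230 ± 11.4 and 232 ± 15.5 CPM (SD, n = 5), and MCL1 was higher in VENins in 2 of 5 line pairs. The log2 fold change was 0.01 (SE 0.06, 95% interval -0.11 to 0.13, adjusted p = 0.95). With 4862 to 6447 counts per library, this interval corresponded to a ratio between 0.929 and 1.09. The sign changed when pair 1 was left out (-0.036), the pair with the largest difference between its libraries, and, in fits without the line block that were chosen after seeing the data, when VENsens 1, VENins 1 or VENins 2 was left out (-0.0086, -0.014 and -0.0078).

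BCL2L1 (ENSG00000171552), which codes for BCL-XL, had 74.5, 68.5, 65.4, 68.8 and 69.3 CPM in VENsens lines 1 to 5 and 67.9, 67.8, 73.2, 63.9 and 71.9 CPM in VENins lines 1 to 5. The ranges of both groups covered each other almost entirely. The log2 fold change was -0.01 (SE 0.06, 95% interval -0.13 to 0.12, adjusted p = 0.972), higher in VENins in 2 of 5 pairs, and its sign changed without pair 1 or pair 4 (0.025 and 0.017) and, in fits without the line block, without VENsens 1 or VENins 4 (0.020 and 0.019).

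BCL2L2 (ENSG00000129473), which codes for BCL-W, had 25.1, 23.1, 24.6, 24.5 and 25.3 CPM in VENsens lines 1 to 5. In VENins lines 1 to 5 it had 25, 20.9, 25.5, 23.0 and 21.3 CPM. The VENins lines spread more widely than the VENsens lines, with the highest as well as the lowest of the 10 values, and with 476 to 699 counts per library. The log2 fold change was -0.08 (SE 0.07, 95% interval -0.23 to 0.06, adjusted p = 0.582), lower in VENins in 4 of 5 pairs, and -0.04 without pair 5. Adding the counts of BCL2L2-PABPN1 gave -0.09.

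BCL2A1 (ENSG00000140379), an NF-kB target that codes for BFL-1, had 2, 2, 2, 2 and 1 counts in VENsens lines 1 to 5 and 0, 3, 1, 1 and 1 in VENins lines 1 to 5. No library held more than 3 counts, and 3 counts correspond to 0.106 to 0.145 CPM in these libraries. BCL2A1 was thus at or under this floor in both groups, a fold change was not given, and a difference was not detectable at this depth. This floor covers counting error only.

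**Figure D2:**
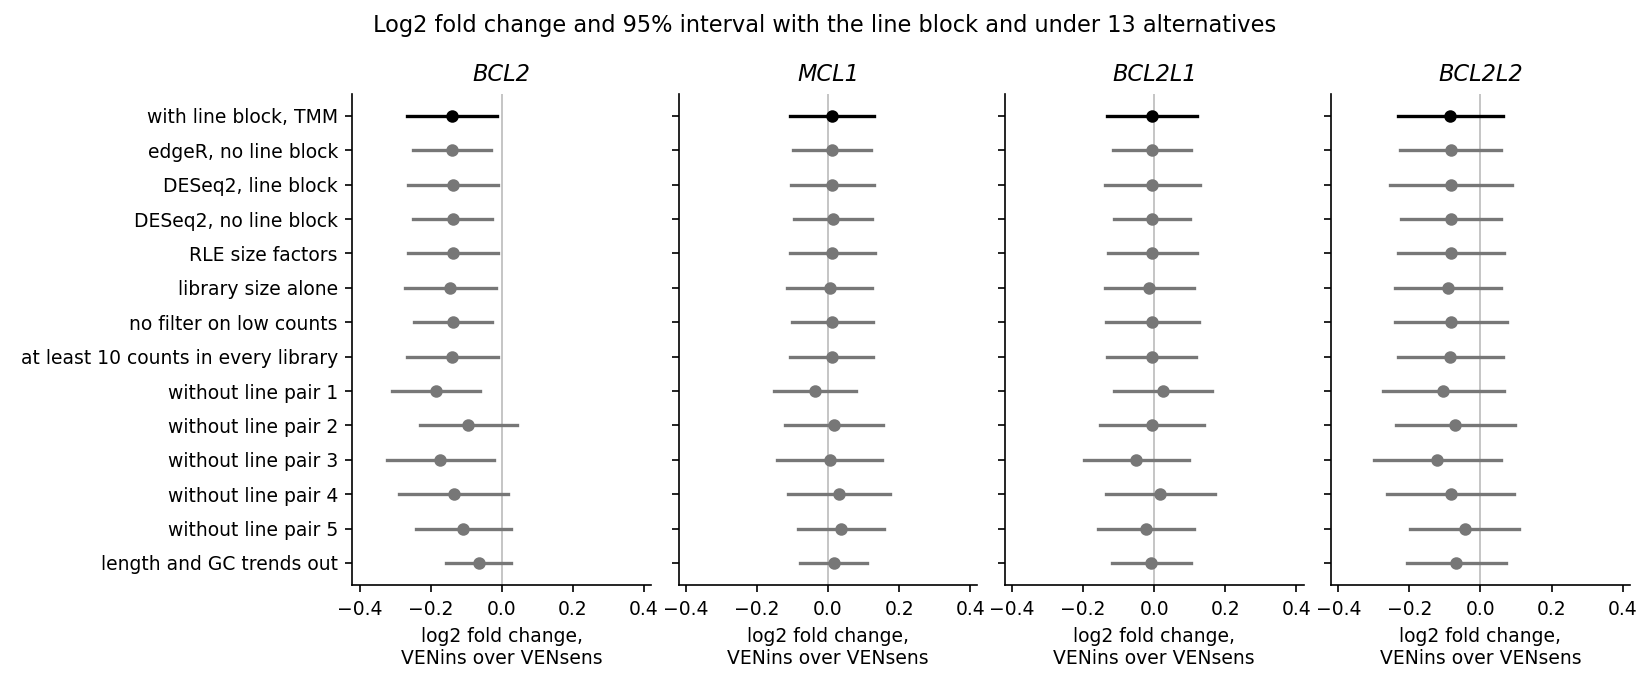
Log2 fold change (VENins over VENsens, horizontal axis) with its 95% interval (lines) of the 4 tested members with the line block and under 13 alternatives (rows); black marks the fit with TMM and a block for the line, and grey the alternatives. BCL2 lies below 0 in the 14 rows, with intervals that reach 0 without pair 2, 4 or 5 and with length and GC trends out, and the intervals of MCL1, BCL2L1 and BCL2L2 include 0 in all rows.

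Ratios between members within a library do not depend on how libraries are scaled to each other, and they describe the balance of the family. The log2 ratio of MCL1 to BCL2, from counts per kilobase of exon, was 0.56, 0.52, 0.63, 0.57 and 0.50 in VENsens lines 1 to 5 and 0.72, 0.82, 0.67, 0.65 and 0.66 in VENins lines 1 to 5. The ratio was higher in VENins in 5 of 5 pairs, and the lowest VENins line lay above the highest VENsens line. The means were 0.56 ± 0.05 and 0.70 ± 0.07 (SD, n = 5), a difference of 0.15 on the log2 scale or a factor of 1.11. Of 16755 genes, 8.83% had a ratio to BCL2 that was higher in all VENins than in all VENsens lines, so that this pattern was not rare, and no p-value was computed for it. Removing the dependence on length and GC content from both genes, a step added after the values were seen, left a difference of 0.08. The lowest VENins line (-0.802) then lay only just above the highest VENsens line (-0.813). After this removal, the share of genes with such a ratio to BCL2 was not computed.

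The ratios of BCL2L1 and BCL2L2 to BCL2 overlapped between the groups. For BCL2L1 the mean log2 ratio (± SD of 5 lines) was -0.77 ± 0.13 in VENsens against -0.64 ± 0.11 in VENins, and the difference of 0.13 was about as large as the spread between lines. It was 0.06 once the dependence on length and GC content was removed and 0.09 to 0.21 with a line pair left out. For BCL2L2 it was -2.61 ± 0.14 and -2.56 ± 0.08, with a difference of 0.05, which was smaller than that spread and turned to -0.0040 once the dependence on length and GC content was removed, and it was 0.02 to 0.08 with a line pair left out. A ratio of BCL2A1 to BCL2 was not computed at 0 to 3 counts.

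The members were also set against the proteins they hold, BIM (coded by BCL2L11) and BAX. The log2 ratio of MCL1 to BCL2L11 was 2.94, 3.01, 3.07, 2.92 and 2.98 in VENsens lines 1 to 5 and 3.27, 3.31, 3.14, 3.11 and 3.20 in VENins lines 1 to 5. The VENins lines lay above the VENsens lines without overlap, with a difference of 0.22 or a factor of 1.17 (0.20 to 0.26 with a line pair left out). Of 16755 genes, 23.1% had a ratio to BCL2L11 that was higher in all VENins lines, and the numerator MCL1 had a log2 fold change of 0.01. The ratio of BCL2 to BCL2L11 overlapped between the groups at 2.43 ± 0.06 and 2.50 ± 0.04. Its difference of 0.07 was 0.05 to 0.09 with a line pair left out, and 0.10 (higher in 5 of 5 pairs) once the dependence on length and GC content was removed. The ratio of BCL2 to BAX was 1.17, 1.61, 0.98, 1.36 and 1.21 in VENsens lines and 1.81, 1.51, 1.93, 1.73 and 1.52 in VENins lines 1 to 5. It was higher in VENins in 4 of 5 pairs, and VENsens 2 lay within the range of the VENins lines. After removal of the dependence on length and GC content the groups did not overlap for this ratio (difference 0.52, beside 0.44 without removal, which was 0.31 to 0.57 with a line pair left out). After this removal the ratio to BAX was higher in all VENins lines for 70.5% of 16311 genes.

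**Figure D3:**
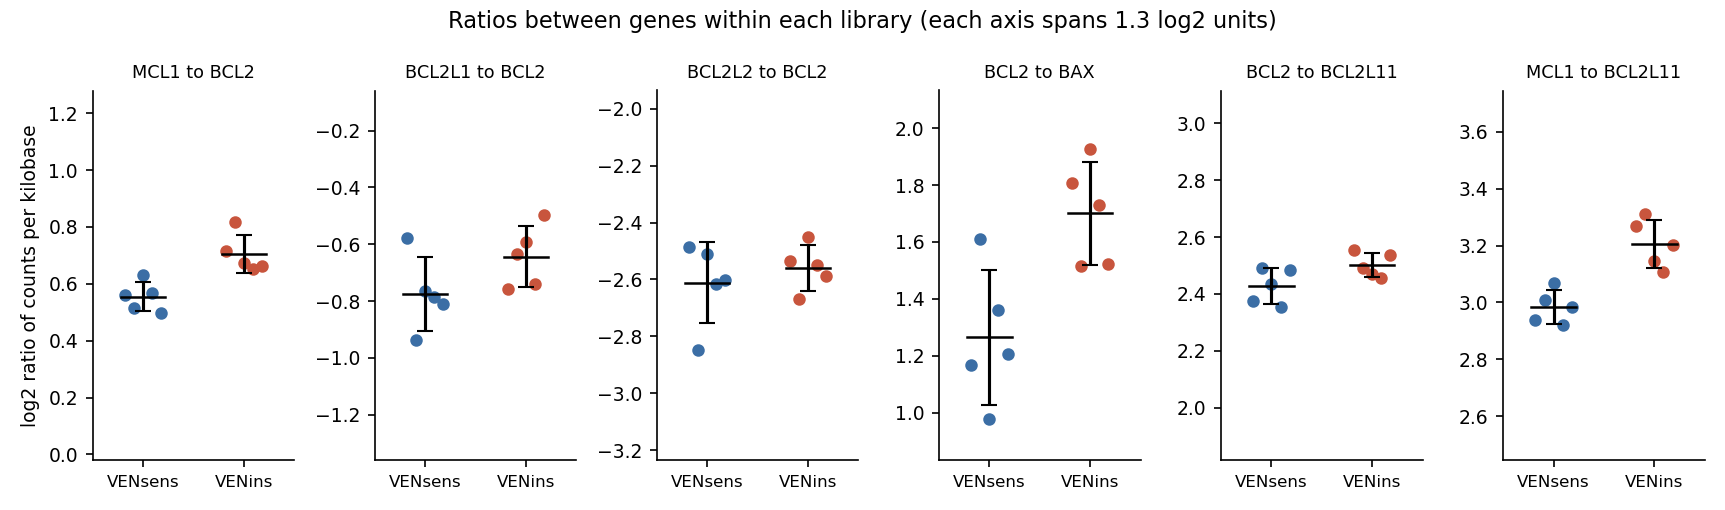
Log2 ratio of counts per kilobase of exon between the named genes within each library (vertical axes span 1.3 units each and are placed differently) for 5 VENsens lines (blue) and 5 VENins lines (red), with mean ± SD. MCL1 to BCL2 and MCL1 to BCL2L11 are higher in VENins lines without overlap, and the other ratios overlap.

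Pathway genes around the family were taken from lists of 62 genes, of which 56 were tested. BAX was called lower in VENins lines, and no other gene of these lists passed an adjusted p of 0.05 in edgeR with the line block. Groups did not overlap for 9 of the 56, beside 4.66% of all tested genes. The median log2 fold change over these genes was -0.0041, beside 0.0035 over all tested genes, with 27 above and 29 below 0. Over 23 alternatives this median ranged from -0.021 to 0.032, with 25 to 32 genes above 0.

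Among the effectors, which open the outer mitochondrial membrane, BAX had 38.6, 33.6, 44.0, 36.1 and 41.1 CPM in VENsens lines 1 to 5 and 25.6, 28.7, 22.7, 25.1 and 27.5 CPM in VENins lines 1 to 5. The VENins lines lay below the VENsens lines without overlap. The log2 fold change was -0.58 (SE 0.09, 95% interval -0.76 to -0.39, adjusted p = 0.0128, lower in 5 of 5 pairs), and over 23 alternatives it stayed between -0.66 and -0.48 with adjusted p-values from 4.40e-11 to 0.0563. Without pair 5 the adjusted p was 0.0563 and the call was lost, at a log2 fold change of -0.58. BAK1, the other tested effector, had a log2 fold change of 0.10 (95% interval -0.06 to 0.26, adjusted p = 0.550), and BOK was too low to be tested.

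Of the 8 BH3-only genes, whose products are the ligands of the anti-apoptotic groove, 7 were tested and 0 called by edgeR (3 at an unadjusted p under 0.05, beside 16.2% of all tested genes), with 4 above and 3 below 0 and a median of 0.04. In a fit without the line block that left out VENsens 1, 3 were above and 4 below 0, with a median of -0.0014. That fit was chosen after seeing the data. For BMF the log2 fold change was -0.32 (95% interval -0.48 to -0.15, adjusted p = 0.0878), and for BCL2L11 it was -0.21 (95% interval -0.35 to -0.08, adjusted p = 0.138). Both were lower in 5 of 5 pairs with groups that did not overlap, and BID was higher in 5 of 5 pairs without overlap at 0.12 (adjusted p = 0.294). DESeq2 called BMF with the line block (adjusted p = 0.0272) and both genes without it (adjusted p = 0.0259 for BMF and 0.0184 for BCL2L11). Adjusted p-values over 23 alternatives ranged from 0.00113 to 0.486 for BMF and from 0.0184 to 0.561 for BCL2L11. PMAIP1, which codes for the MCL-1 ligand NOXA, had the highest level of the list at 168 CPM. Its log2 fold change of 0.04 became -0.0014 in the fit without the line block that left out VENsens 1. HRK had 2 counts in all 10 libraries together.

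Of 5 further BCL-2 homologues, 3 were tested and edgeR and DESeq2 called 0 (0 at an unadjusted p under 0.05 in edgeR), with BCL2L13 at -0.10 and BCL2L12 at 0.10 as the genes with the smallest p. BCL2L12 was at 0.013 without pair 5 and at 0.0092 without VENins 5 in the fit without the block, and BCL2L13 was at -0.04 with the dependence on length and GC content removed. In sum these homologues reached 108 ± 3.53 CPM (VENsens) and 104 ± 5.20 CPM (VENins). BCL2L10, also a homologue, had at most 3 counts in any library.

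MCL-1 protein is marked for degradation by several ubiquitin ligases and protected by deubiquitinases, and GSK3 kinases prime it for degradation. Of 11 genes for such ligases and their subunits, deubiquitinases and kinases, 10 were tested. edgeR called 0 (2 at an unadjusted p under 0.05, beside 16.2% of all tested genes), DESeq2 called 0 with and 1 without the line block (1.3% and 4.41% of all tested genes), 6 were below and 4 above 0, and the median log2 fold change was -0.09 (-0.11 to -0.03 over 23 alternatives). HUWE1, a ligase for MCL-1, had 208 ± 5.17 (VENsens) and 184 ± 12.1 CPM (VENins), at a log2 fold change of -0.17 (95% interval -0.29 to -0.06, adjusted p = 0.146) and lower values in 5 of 5 pairs. HUWE1 was called by DESeq2 without the block (adjusted p = 0.0255) and by edgeR without the block when VENins 4 or VENins 5 was left out (adjusted p = 0.0374 and 0.0451), within a range of 0.0255 to 0.564 over 23 alternatives. With the dependence on length and GC content removed, HUWE1 was at -0.08 (adjusted p = 0.279). The kinase gene GSK3B was at -0.14 (adjusted p = 0.276), between -0.19 and -0.09 over these alternatives.

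edgeR called 0 regulators of transcription of the family. All 10 NF-kB subunits and inhibitors were tested (3 at an unadjusted p under 0.05, beside 16.2% of all tested genes, 0 called by DESeq2), with 7 above 0 and a median of 0.06. Over 23 alternatives 5 to 7 were above 0, at medians from 0.0085 to 0.10. REL had a log2 fold change of -0.45 (95% interval -0.78 to -0.12, adjusted p = 0.180) at 5.40 CPM on average, and TNFAIP3, a feedback inhibitor of NF-kB, one of -0.27 (adjusted p = 0.193). REL was at -0.25 without pair 2. Without the filter on low counts REL was called (adjusted p = 0.0117, in a range of 0.0117 to 0.626 over 23 alternatives). NF-kB subunit genes were thus expressed in lines with BCL2A1 at the floor, with RELA at 103 CPM. Among the kinases and cyclins that transcription of short-lived RNAs such as MCL1 depends on, CCNT1 was at -0.15 (adjusted p = 0.248) and CDK7 at 0.19 (adjusted p = 0.313). CCNT1 was at -0.10 without pair 5 and CDK7 at 0.10 without pair 2. CDK9 itself was at 207 CPM in both groups.

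Of 9 transcription factors tied to BCL2 or MCL1, 9 were tested and 4 were above 0, with a median of -0.02 (2 at an unadjusted p under 0.05, beside 16.2% of all tested genes, 0 called by DESeq2). This median ranged from -0.07 to 0.03 over 23 alternatives. STAT5A and STAT5B had log2 fold changes of -0.19 (adjusted p = 0.273) and -0.12 (adjusted p = 0.284), each lower in 5 of 5 pairs, and STAT5B was at -0.07 with the dependence on length and GC content removed. Of 9 upstream genes of JAK-STAT and PI3K signaling, 8 were tested, 2 were above 0 (2 to 5 over 23 alternatives), and 1 had an unadjusted p under 0.05, beside 16.2% of all tested genes. IL7R, the receptor subunit for a survival cytokine of B-cell precursors, had 715 ± 38.0 (VENsens) and 637 ± 30.8 CPM (VENins), a log2 fold change of -0.17 (95% interval -0.29 to -0.05, adjusted p = 0.177), and DESeq2 without the line block called it (adjusted p = 0.0279, in a range of 0.0279 to 0.614 over 23 alternatives). FLT3 was at -0.09 (adjusted p = 0.410), between -0.13 and -0.06 over these alternatives.

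**Figure D4:**
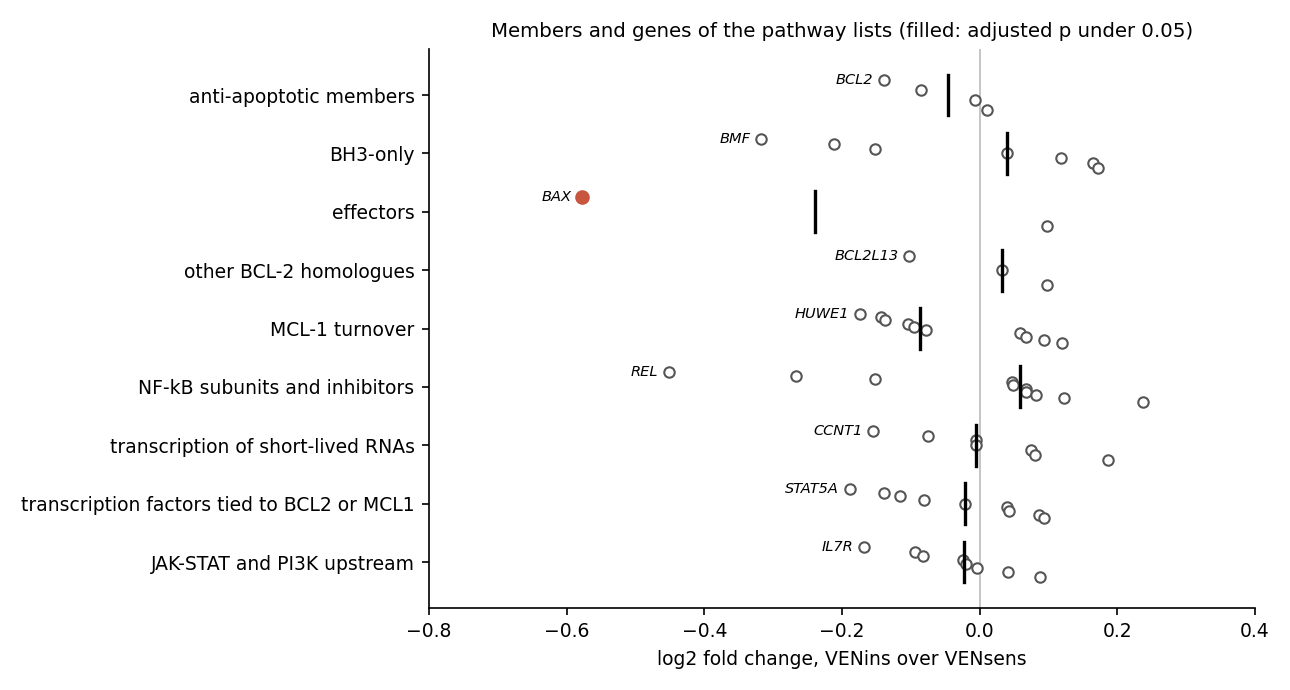
Log2 fold change (VENins over VENsens, horizontal axis) of each tested gene of the anti-apoptotic family and of 8 pathway lists (rows); filled points have an adjusted p under 0.05, vertical bars are list medians, and the lowest gene of each row is named. BAX at -0.58 is the filled point.

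The lines kept the markers of their lineage. All 8 B-lineage markers were tested, and they summed to 2791 ± 63.1 CPM (VENsens) and 2735 ± 149 CPM (VENins). PAX5, the most abundant of them, was called lower in VENins lines at a log2 fold change of -0.31 (95% interval -0.43 to -0.20, adjusted p = 0.0272, lower in 5 of 5 pairs). This call was lost without pair 2 (adjusted p = 0.242), pair 3 (0.0597) or pair 5 (0.0647), at log2 fold changes of -0.26, -0.34 and -0.32. Over 23 alternatives PAX5 stayed between -0.35 and -0.24, with adjusted p-values from 1.24e-06 to 0.242. The 4 markers of KMT2A-rearranged leukemia, led by FLT3, summed to 641 ± 21.2 and 631 ± 15.3 CPM, with 0 called by edgeR or DESeq2 and 0 at an unadjusted p under 0.05 in edgeR. Markers of other lineages were low, with the 7 myeloid genes at sums of 17.1 (VENsens) and 17.7 CPM (VENins), of which CSF1R held 9.51 CPM, and with MPO at 0.139 CPM on average. The 5 T-lineage genes that were matched of 6 summed to 1.21 and 1.07 CPM, and of 5 erythroid genes 3 were at 0 in every library.

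The genes whose log2 CPM followed that of each member most closely over the 10 libraries were taken from 9631 protein-coding genes with at least 5 CPM, as a description and without a test. For BCL2 these were ARID2 (Pearson r = 0.991), PIKFYVE (0.986) and CNOT1 (0.984). Like BCL2, these genes have a long total of annotated exons, at 12.1, 10.8 and 10.9 kb beside a median of 5.28 kb over the genes compared, and their log2 fold changes were -0.19, -0.20 and -0.16. For MCL1 the closest genes were ACTR2 (0.979), AZIN1 (0.974) and ZNF721 (0.962), with GC contents of 38.1%, 42.3% and 37.3% beside 45.1% in MCL1 and a median of 47.7%. For BCL2L1 they were ZSWIM3 (0.902), PHF13 (0.90) and C5 (0.872), and for BCL2L2 GINS1 (0.905), NEMP1 (0.898) and CLSPN (0.876). The GC contents were 52.3%, 54.2% and 39.9% beside 56.9% in BCL2L1, and 41.4%, 40.9% and 44.8% beside 52.3% in BCL2L2. Exon totals were 2.77, 3.68 and 6.53 kb beside 3.31 kb in BCL2L1, and 4.07, 5.71 and 5.41 kb beside 4.19 kb in BCL2L2. No member was among the closest genes of another member. How much length and base composition take part in these likenesses was not tested.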

How the data were processed

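RNA-Seq libraries of 5 VENsens and 5 VENins RS4;11 lines were analysed. The authors deposited raw counts of single-end reads per Ensembl gene, made with Bowtie2 2.3.5.1, SAMtools 1.9 and HTSeq 0.9.1 on hg19 per the submitters' processing notes. Reads outside genes, on several genes or of low alignment quality were not used, and 52.7% to 54.2% of reads were counted on genes. Symbols, exon lengths and coordinates came from GENCODE 29 (GRCh38), which named 52526 of 63677 identifiers. No coordinates were compared between builds.

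The analysis used edgeR 4.0.16 in R 4.3.3. Low genes were removed by filterByExpr (minimum count 10, minimum total 15), and after TMM scaling each gene was fitted with a block for the line number, since the study describes a paired analysis, and given a quasi-likelihood F test. Benjamini-Hochberg adjustment ran over the whole set of tested genes (threshold 0.05). Standard errors were taken from the F statistic and 95% intervals from the t quantile. Log2 CPM used a prior count of 2. The steps were tested on simulated data.

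Named genes were the 5 members, all listed genes that passed the test, at least the 2 of each list with the smallest p, and the 3 genes most like each member, for members with a mean of at least 1 CPM. BID, PMAIP1, RELA, CDK9, the markers and the listed genes near 0 were named after their values were seen. The members and lists were chosen with earlier results of these data known. The counts of the list on transcription of short-lived RNAs are not reported here. Alternatives were no block, DESeq2 1.42.0 with and without the block, RLE factors, library size alone, no filter, at least 10 counts in every library, each line pair left out, natural splines (4 degrees of freedom) on length and GC content with the block, the read-through counts added to BCL2L2, and the longest transcript as length. Added after the values were seen were the correction of ratios for length and GC content and 10 fits without the block that each left out 1 library. Figures were drawn with matplotlib 3.10.9.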

Additional observations from a re-analysis of the deposited data

Results flagged for a closer look

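Among 52 groups of 5 libraries looked at for the values above, 3 held a library whose gap to the nearest other library was more than 0.71 of the range of its group. Chance gives about 1 in 20 groups, or 2.6 here. BCL2L12 was at 28.4 CPM in VENins 5, beside 21.2 to 22.3 CPM in the other VENins lines. GSK3B was at 90.6 CPM in VENsens 2, beside 74.8 to 79.2 CPM, and CDK7 was at 13.9 CPM in the same library, beside 16.8 to 17.8 CPM. BCL2, MCL1, BCL2L1 and BCL2L2 had no such library, and BCL2A1, at 0 to 3 counts, was not looked at in this way. DNTT, a B-lineage marker given only within a sum, was not among these groups. It ran from 1.08 to 27.3 CPM in VENins lines, at a mean of 7.02 CPM. In edgeR, the log2 fold change of DNTT was -0.36 with the line block and 0.49 without it.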

How the results depend on the processing

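Under every alternative that gave a value, BCL2, MCL1, BCL2L1 and BCL2L2 stayed above an adjusted p of 0.05. With each line pair left out in turn, log2 fold changes ranged from -0.18 to -0.09 for BCL2, from -0.036 to 0.037 for MCL1, from -0.051 to 0.025 for BCL2L1 and from -0.12 to -0.04 for BCL2L2. With each single library left out in fits without the block, which were chosen after seeing the data, they ranged from -0.17 to -0.10, from -0.014 to 0.042, from -0.030 to 0.020 and from -0.12 to -0.05. MCL1 and BCL2L1 thus changed sign. BCL2A1 gave no value, as it was at the floor.

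Calls over all genes moved from 33 to between 6 (without pair 2) and 331 (without pair 4), to 664 without a filter and to 156 with length and GC trends removed. Without the replicate block edgeR called 149 genes, and between 18 (without VENsens 4) and 783 (without VENins 4) with a single library left out as well. DESeq2 called 217 with the block and 739 without it. Line numbers did not pair the libraries in the data: deviations from group means correlated between -0.103 and 0.028 at the same number, and 0 of 5 lines correlated best with their own number. In the pathway lists, 1 gene was called (BAX), 2 by DESeq2 with the block (BAX and BMF), 5 by DESeq2 without it (also BCL2L11, HUWE1 and IL7R), 3 without a filter (BAX, BMF and REL), 0 to 1 with a pair left out (0 without pair 5) and 1 to 3 with a single library left out without the block (BAX and HUWE1 without VENins 4, also BBC3 without VENins 5). The cause of these moves was not tested.

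With the longest transcript as length, levels in VENsens lines were 56.5 for BCL2, 58.5 for MCL1, 26.6 for BCL2L1 and 6.80 for BCL2L2 CPM per kilobase. With length and GC trends removed, also chosen after seeing the data for ratios, the difference in the log2 ratio of BCL2L2 to BCL2 was -0.0040 in place of 0.05. Depth limits BCL2A1.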
